A study of Mus musculus with 6 samples.

Results

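The calcium handling genes of the heart were described by the open chromatin at 10 of them, namely Ryr2, Atp2a2, Pln, Sln, Casq2, Cacna1c, Cacnb2, Slc8a1, Trdn and Jph2. Members were every peak that overlapped one of these genes or the 10 kb on either side (GENCODE M21 on mm10), in each of 6 peak lists. Peaks of all libraries that overlapped each other were merged into 1 region, which left 461 regions at the 10 genes of 169872 in the genome. Omni-ATAC-Seq, an assay that maps accessible DNA with a sequencing transposase, had been run on 50000 nuclei per library from whole mouse hearts at postnatal day 1, in 3 groups of 2 biological replicates.

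All groups began with nuclei from a 2.2 M sucrose cushion. The Input libraries hold such nuclei from WT hearts with no immunoprecipitation. Myc libraries hold nuclei of Nkx2-5 Cre/+; R26RSun1-Myc-Egfp/+ hearts, in which Cre made where Nkx2-5 is active switches on a Myc-tagged protein of the nuclear envelope, after magnetic immunoprecipitation of nuclei (MAN-IP) with a Myc antibody. PCM1 libraries hold nuclei of WT hearts after MAN-IP with an antibody to PCM1, a protein that surrounds cardiomyocyte nuclei. Some smooth muscle and endothelial cells descend from Nkx2-5-positive cells too and carry the tag. The dense cushion is the one the study's methods use to collect cardiomyocyte nuclei, and it was chosen to keep nuclei of other cells out of these libraries. Only the Myc hearts carried Cre and the tag, so genotype and antibody cannot be told apart, and whether several hearts were pooled in a library is not given in the sources used here. A lower peak from fewer cardiomyocyte nuclei and a lower peak from less open chromatin in each nucleus cannot be told apart either.

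Each heartbeat begins when an L-type calcium channel, built on the pore subunit encoded by Cacna1c and the auxiliary subunit encoded by Cacnb2, lets calcium into the cardiomyocyte. This calcium opens the ryanodine receptor Ryr2, which releases far more calcium from the sarcoplasmic reticulum, where Casq2 stores it and Trdn holds Casq2 to the receptor. Jph2 ties the cell membrane to the reticulum so that channel and receptor face each other. Relaxation follows when the pump Atp2a2 (SERCA2), held back by the small proteins encoded by Pln and Sln, returns calcium to the store, and when the exchanger Slc8a1 carries the rest out of the cell.

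The regions on which the results turn lay mostly in introns, and a stretch around the summit of 8 of them is shown to let the reader see the DNA behind the values. These are the strongest region away from a promoter at Ryr2, Atp2a2, Casq2, Cacna1c, Trdn and Jph2, and further introns of Cacna1c and Jph2 with 2 of the smallest p-values. Here and below, the strongest region away from a promoter is the one that ranked highest in the library where it ranked lowest. Other regions of a gene can rank above it in single libraries. At Atp2a2 the region 8.71 kb upstream did so in both Input libraries, Myc replicate 1 and PCM1 replicate 1. Each stretch is 200 bases of the plus strand of GRCm38 (mm10), at chr13:12104421-12104620 for Ryr2, chr5:122509717-122509916 for Atp2a2, chr3:102099361-102099560 for Casq2, chr6:119139619-119139818 and chr6:118819733-118819932 for Cacna1c, chr10:33256343-33256542 for Trdn, and chr2:163392559-163392758 and chr2:163353935-163354134 for Jph2. Capitals mark matches, on either strand and with overlaps allowed, to the motifs of MEF2 (by its consensus), GATA factors (searched as AGATAA), NKX2-5 (TNAAGTG), TEAD (GGAATG), TBX (AGGTGTG), the CArG box of SRF (by its consensus), the E-box CAGCTG and AP-1 (TGANTCA). A match is a description of the letters, not a bound site. Distances in the names run along the gene from its annotated 5′ end.
Ryr2 intron at 2.42 kb: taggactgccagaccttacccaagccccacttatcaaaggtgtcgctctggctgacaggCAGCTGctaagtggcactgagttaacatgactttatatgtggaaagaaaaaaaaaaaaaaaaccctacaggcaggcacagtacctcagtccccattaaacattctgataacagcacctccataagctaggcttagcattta
Atp2a2 upstream at 7.59 kb: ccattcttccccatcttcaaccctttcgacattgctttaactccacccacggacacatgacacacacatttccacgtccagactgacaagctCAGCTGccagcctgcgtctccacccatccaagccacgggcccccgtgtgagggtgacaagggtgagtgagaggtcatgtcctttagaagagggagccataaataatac
Casq2 intron at 13.05 kb: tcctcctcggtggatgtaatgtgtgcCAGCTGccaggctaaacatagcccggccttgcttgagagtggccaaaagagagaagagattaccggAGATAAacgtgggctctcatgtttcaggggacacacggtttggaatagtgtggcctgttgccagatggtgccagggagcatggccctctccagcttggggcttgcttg
Cacna1c intron at 56.7 kb: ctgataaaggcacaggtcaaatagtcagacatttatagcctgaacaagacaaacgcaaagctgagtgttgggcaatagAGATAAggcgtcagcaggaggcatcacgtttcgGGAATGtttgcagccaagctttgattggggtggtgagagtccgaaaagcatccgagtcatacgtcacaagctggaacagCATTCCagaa
Cacna1c intron at 377 kb: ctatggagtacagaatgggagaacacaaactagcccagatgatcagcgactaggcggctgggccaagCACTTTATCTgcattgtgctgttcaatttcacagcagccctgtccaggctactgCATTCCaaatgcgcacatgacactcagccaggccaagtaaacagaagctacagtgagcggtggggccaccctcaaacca
Trdn intron at 176 kb: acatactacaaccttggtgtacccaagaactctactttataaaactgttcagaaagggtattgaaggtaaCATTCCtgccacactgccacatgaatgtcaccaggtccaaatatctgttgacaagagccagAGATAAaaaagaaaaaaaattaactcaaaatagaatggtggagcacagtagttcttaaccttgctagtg
Jph2 intron at 5.33 kb: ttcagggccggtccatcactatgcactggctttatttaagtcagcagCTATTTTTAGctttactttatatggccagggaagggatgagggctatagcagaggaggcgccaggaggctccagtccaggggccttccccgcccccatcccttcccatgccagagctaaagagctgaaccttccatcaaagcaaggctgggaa
Jph2 intron at 44.0 kb: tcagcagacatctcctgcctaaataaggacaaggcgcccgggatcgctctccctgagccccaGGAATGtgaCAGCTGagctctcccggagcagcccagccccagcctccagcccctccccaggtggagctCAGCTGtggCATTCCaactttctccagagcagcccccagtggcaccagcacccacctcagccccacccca

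The lists give no read counts, so the height of each peak was solved from the authors' fold enrichment and p-value. The summit pileup is the number of fragments stacked at the top of the peak, and it is given here divided by the library's median over the 48861 regions that had a peak in every library, so that 1 is the height of a middling shared region. Depth differed, with 75336 to 131500 peaks per list and a genome-wide background pileup of 0.903 to 3.96, and Input replicate 1 was 4.38 times as deep as PCM1 replicate 2. A peak that is missing was therefore not detectable at that depth, and the small number of fragments at weak regions limits the precision of their pileups.

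Open chromatin at the long calcium handling genes lay mostly in introns. Of the 461 regions, 109 (23.6%) had a peak in all 6 libraries, against 28.8% of all regions in the genome. The long genes held most of them, with 39 at Cacna1c (609 kb), 14 at Slc8a1 (365 kb), 12 each at Ryr2 (554 kb) and Cacnb2 (385 kb) and 5 at Trdn (396 kb). Jph2 had 13 such regions within a gene of 61.8 kb, a density of 15.9 per 100 kb of gene and flanks that was above 98.1% of the 21938 protein-coding genes, and at Pln (14.1 per 100 kb) it was above 96.8%. The Trdn locus was sparse, with 1.20 per 100 kb, below the median of 3.47 over all genes. Of the 109 shared regions, 86 (78.9%) had their summit in an intron (36 of 39 at Cacna1c, but 0 of 4 at Atp2a2 and at Pln) and 13 lay within 1 kb of a transcription start site (TSS) of the gene itself. The intron share was not computed over all shared regions or over the bases of these genes, so it describes the 10 genes alone. Over 1 kb from any protein-coding TSS lay 95 of the 109 regions and 35769 of the 48861 shared regions of the genome. A further 178 regions (38.6%, against 30.4% of all regions) were called in a single library, 72 of them in Input replicate 1, the deepest, which held 342 peaks at the 10 genes where the other libraries held 184 to 230.

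Few regions were present in some groups and missing in others. A peak in both Input and both PCM1 libraries and in neither Myc library was found at 5 of 461 regions (1.08%), where 0.268% of all regions had that pattern, and these were 3 regions of Cacna1c, 1 of Ryr2 and 1 of Cacnb2. The strongest of them, in Cacna1c at 505 kb from the 5′ end, ranked at percentiles 76.5 and 67.4 of the Input lists and at 57.4 and 37.1 of the PCM1 lists (100 is the strongest peak of a list by its q-value). It is named after its values were seen. The reverse pattern, in Input and Myc but not PCM1, was found at 2 of 461 regions (0.434%, against 2.26% of all regions), 1 each in Slc8a1 and Trdn.

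Promoters of these genes ranked high in every library. A peak within 1 kb of a TSS in all 6 libraries was found at 9 of the 10 genes, where 58.9% of protein-coding genes had one, and Sln was the exception. Ordered by the median over libraries, Cacna1c had the strongest promoter, at rank percentiles 95.1 to 99.4 over the 6 libraries, followed by Jph2 (95.01 to 98.8), Cacnb2 (93.0 to 98.8), Slc8a1 (88.6 to 96.5), Atp2a2 (89.8 to 98.2), Ryr2 (86.8 to 92.5), Pln (85.6 to 90.5), Casq2 (77.5 to 90.9) and Trdn (65.5 to 78.5). The ranges of neighbours in this order overlapped, so the order of adjacent genes is not resolved, whereas the Trdn range lies below those of the first 7 genes. In Casq2 and Trdn a peak farther from the TSS ranked above the promoter peak in 6 of 6 libraries, which was so for 19.9% of genes with a promoter peak throughout. When peaks were ranked by fold enrichment instead, Cacna1c and Jph2 joined them, making 4 genes. The share of all genes was not computed for that ranking.

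**Figure D1:**
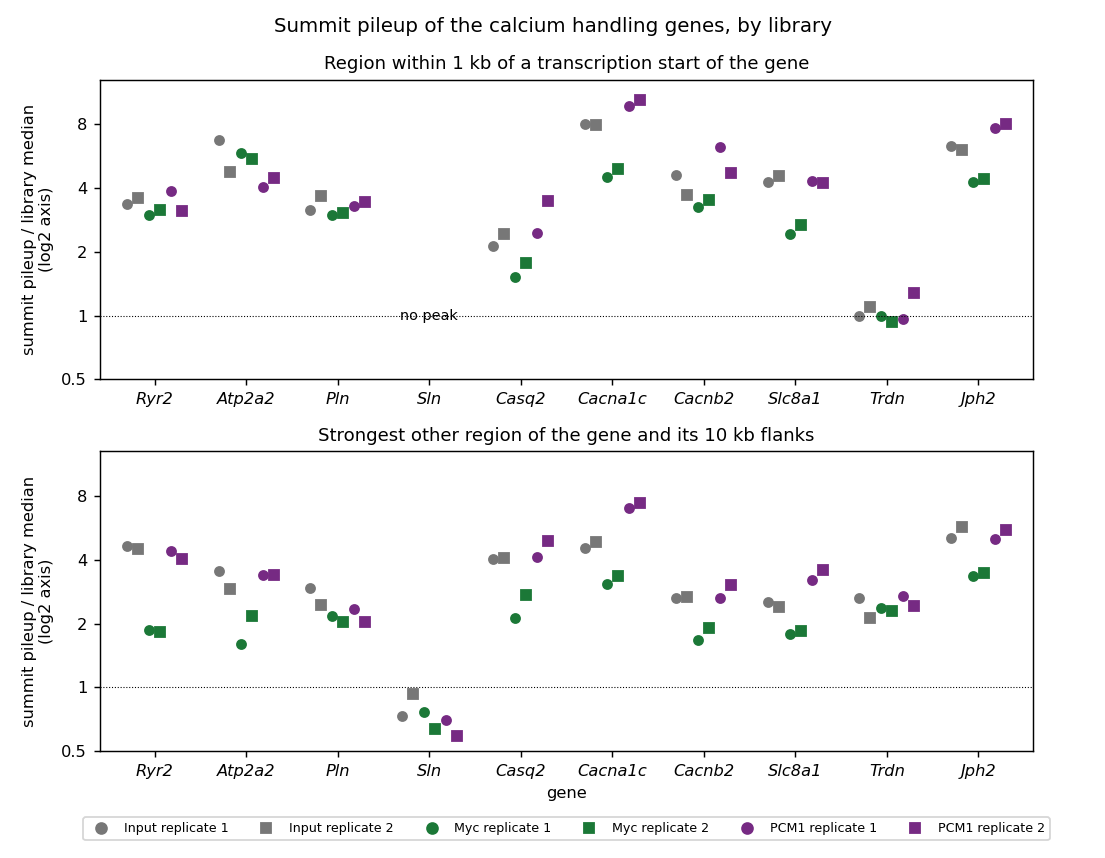
Summit pileup divided by the library median (log2 axis) in each of the 6 libraries, at the promoter region (top) and the strongest other region (bottom) of each gene. The strongest other region is the one that ranked highest in the library where it ranked lowest. Both Myc libraries lie below the other 4 at the promoters of Cacna1c, Jph2, Slc8a1, Cacnb2, Casq2 and, narrowly, Pln, and at the other regions of Ryr2, Atp2a2, Casq2, Cacna1c, Cacnb2, Slc8a1 and Jph2, while at Trdn the libraries overlap.

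The 3 groups were compared at the 109 shared regions with limma, fitted to the log2 pileup over all 48861 shared regions with Benjamini-Hochberg adjustment over them. The comparisons share libraries: Myc and PCM1 are both set against the same Input. A region that lacked a peak in any library could not be tested, so these 109 are not all regions of the genes. The calcium handling genes differed most between the 2 MAN-IP groups. The summit pileup was lower in Myc than in PCM1 at 66 of 109 regions (60.6%, where 13.7% of all regions were called) and higher at 2 (where 15.1% of all regions were). The median difference was -0.86 on the log2 scale, beside 0.00 over all regions. The genes were not alike: 32 of the 66 regions were at Cacna1c, and medians by gene ran from -1.11 (Ryr2) to 0.15 (Trdn). Away from every protein-coding TSS by more than 1 kb, 60 of 95 regions were lower in Myc than in PCM1, against 15.6% of all such regions.

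Input lay between them at most regions. Against Input, Myc was lower at 26 of 109 regions (9.11% of all regions were called) and higher at 0 (4.16% of all regions were), with 1 higher at an unadjusted p under 0.05. PCM1 was higher than Input at 31 of 109 (2.87% of all) and lower at 2 (7.9% of all). Of the 31, 19 were at Cacna1c. The medians over the 109 regions were -0.29 for Myc and 0.42 for PCM1, beside -0.02 and -0.04 over all regions. More than 1 kb from a TSS, 23 of 95 regions were lower in Myc than in Input (8.81% of all such regions) and 28 were higher in PCM1 than in Input (3.38%). The group means ran in the order Myc, Input, PCM1 at 74 of the 109 regions (67.9%), an order found at 22.3% of all regions tested (10919 of 48861).

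These counts depended on how the spread was estimated and on single libraries. The comparison of PCM1 with Input fell from 31 higher regions to 20 without Input replicate 1 and to 8 without Input replicate 2. Without Input replicate 1 or 2, the median difference of PCM1 from Input was 0.39 and 0.46 at the 109 regions, beside -0.04 each over all. Without the trend of the spread with intensity, 0 of the 109 regions passed in either comparison with Input. Of all regions, 0.035% were then lower in Myc and 0.031% higher in PCM1 than in Input. At an unadjusted p under 0.05, 39 of the 109 were lower in Myc and 47 higher in PCM1. In the same fit, 58 of the 66 regions were still lower in Myc than in PCM1 (53.2% of the 109, against 8.42% of all regions). The count of regions lower in Myc than in PCM1 was 49 to 64 when any library was left out.

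**Figure D2:**
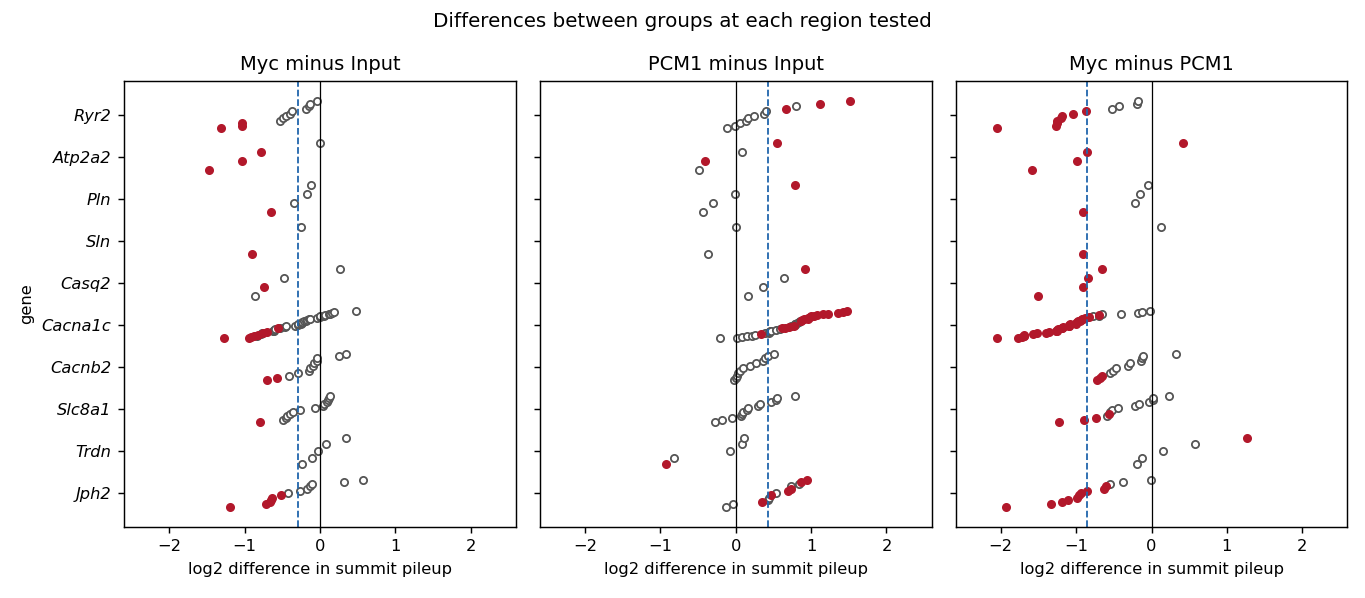
Log2 difference in summit pileup between groups at each of the 109 shared regions (1 point per region, by gene), with filled points for those past an adjusted p of 0.05 in limma and a dashed line at the median of the 109. In the right panel all 39 points of Cacna1c, all 12 of Ryr2 and all 13 of Jph2 lie left of 0, while Trdn spreads to both sides.

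The background around the peaks moved with the groups as well. MACS2 sets each summit against a local background estimated, without a control library, from the reads around it, those of peaks included. Divided by the genome-wide background of its library, this local background had a median over the 109 regions of 4.19 and 3.83 (Input), 3.86 and 4.05 (Myc) and 7.90 and 8.73 (PCM1). Over all shared regions it was 2.3 to 2.7 in the 6 libraries. The rise in PCM1 was greatest at Cacna1c, where the medians were 3.90 and 3.42 (Input), 3.40 and 3.59 (Myc) and 9.52 and 9.55 (PCM1), and it was also seen at Jph2 (7.55 and 8.17 in PCM1, 4.40 to 4.85 in the others) and Ryr2 (8.73 and 9.49 in PCM1, 3.92 to 5.14 in the others). Trdn and Sln showed no such rise, at 2.91 and 3.74 and at 1.76 and 1.40 in PCM1.

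**Figure D3:**
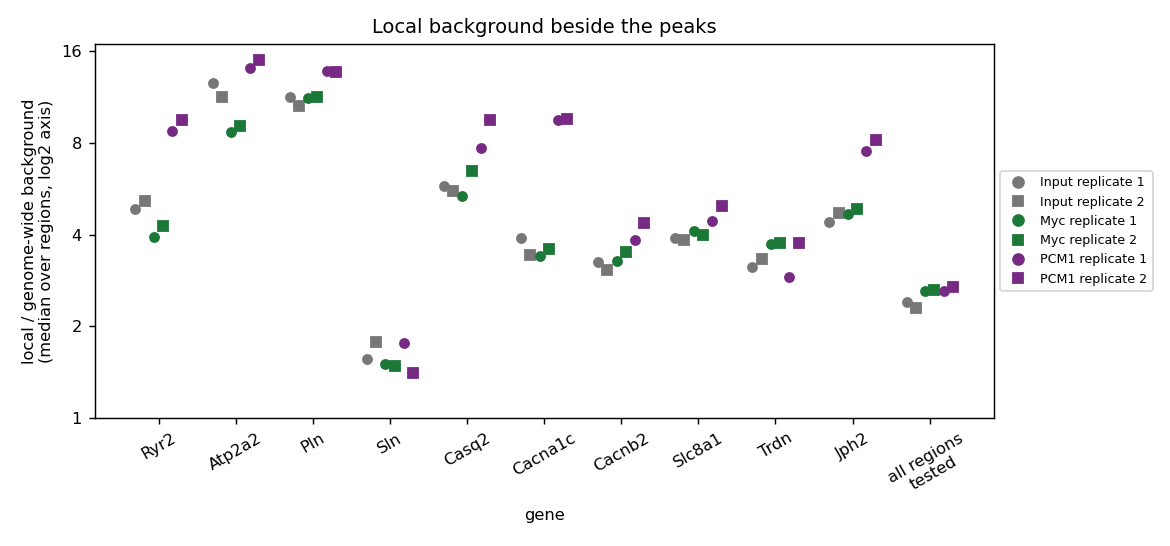
Local background at the summit divided by the genome-wide background of the library (log2 axis), as the median over the shared regions of each gene and over all shared regions, for the 6 libraries. The 2 PCM1 points stand clear of the other 4 at Cacna1c (9.52 and 9.55), Jph2, Ryr2 and Casq2, whereas at all regions the libraries lie between 2.3 and 2.7.

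When the fold enrichment over this local background was fitted in place of the pileup, fewer regions were called at the 10 genes and in the genome. Then 0 of 109 regions differed between Myc and Input or between PCM1 and Input (20 were lower in Myc, 5 higher and 6 lower in PCM1 at an unadjusted p under 0.05), where 0.315% of all regions were lower in Myc and 0.156% higher in PCM1 than in Input. Lower in Myc than in PCM1 were 4 regions (3.67%, against 4.26% of all), where the pileup had called 60.6% against 13.7%. The excess of such calls at the 10 genes over all regions was thus absent by fold. The medians over the 109 regions were -0.16 for Myc and 0.01 for PCM1 against Input and -0.21 for Myc against PCM1, beside -0.03, 0.03 and -0.07 over all. Large differences in fold remained at single regions without a call, as at the Ryr2 intron at 2.42 kb, where the fold enrichment was 11.2 and 10.9 in Input, 6.15 and 6.19 in the Myc libraries, and 8.34 and 8.29 in the PCM1 libraries. Those 4 were the Cacna1c intron at 197 kb, the Jph2 intron at 12.6 kb, the Ryr2 intron at 38.4 kb and the Sln region 7.93 kb past the 5′ end, with log2 differences of -0.94 (adjusted p = 0.0322), -1.20 (0.00921), -0.93 (0.0195) and -0.69 (0.04996) in limma. The single region higher in Myc than in PCM1 by fold was the Trdn intron at 12.1 kb (log2 difference 0.69, limma adjusted p = 0.0239). The Sln and Trdn regions are named after their values were seen. What raised the local background in the PCM1 libraries was not tested.

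Cacna1c, the pore of the L-type channel, had 32 of its 39 shared regions lower in Myc than in PCM1 and 19 higher in PCM1 than in Input. The 19 fell to 6 without Input replicate 2, and by fold enrichment the counts were 1 and 0. Its promoter region (chr6:119196341-119197176, summit 164 bases upstream of the start of transcript Cacna1c-212) had relative pileups of 8.01 and 7.97 (Input), 4.52 and 4.91 (Myc) and 9.80 and 10.4 (PCM1). No library of one group reached into another. The log2 difference of Myc from PCM1 was -1.10 ± 0.10 (SE, n = 2 per group, limma adjusted p = 8.09e-10) and that from Input was -0.76 ± 0.10 (adjusted p = 1.36e-06). The rise of 0.34 from Input to PCM1 (adjusted p = 0.0278) was lost without Input replicate 1, Input replicate 2 or PCM1 replicate 2 (adjusted p = 0.113, 0.158 and 0.141), and by fold enrichment the difference turned to -0.0576.

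Far inside the gene, the Cacna1c intron at 56.7 kb (chr6:119139358-119140062), shown above with 1 GATA and 2 TEAD matches, was its strongest region away from a promoter. Relative pileups there were 4.57 and 4.87 (Input), 3.09 and 3.34 (Myc) and 7.03 and 7.41 (PCM1), with a log2 difference of -1.17 ± 0.12 between Myc and PCM1 (SE, limma adjusted p = 9.07e-09) and of 0.62 between PCM1 and Input (adjusted p = 0.000921). The 3 groups were again apart. Between 299 and 404 kb from the 5′ end, a stretch picked out after its values were seen, all 13 shared regions were lower in Myc than in PCM1, among them the intron at 377 kb (chr6:118819614-118820236), which had 2.85 and 2.40 (Input), 1.63 and 1.57 (Myc) and 5.37 and 5.03 (PCM1). Its log2 difference between Myc and PCM1 was -1.70 ± 0.16 (adjusted p = 1.02e-09). The weak intron at 197 kb (chr6:118999280-118999771) stood at 0.478 and 0.383 in the Myc libraries, where Input had 0.973 and 1.10 and PCM1 had 1.80 and 1.76.

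**Figure D4:**
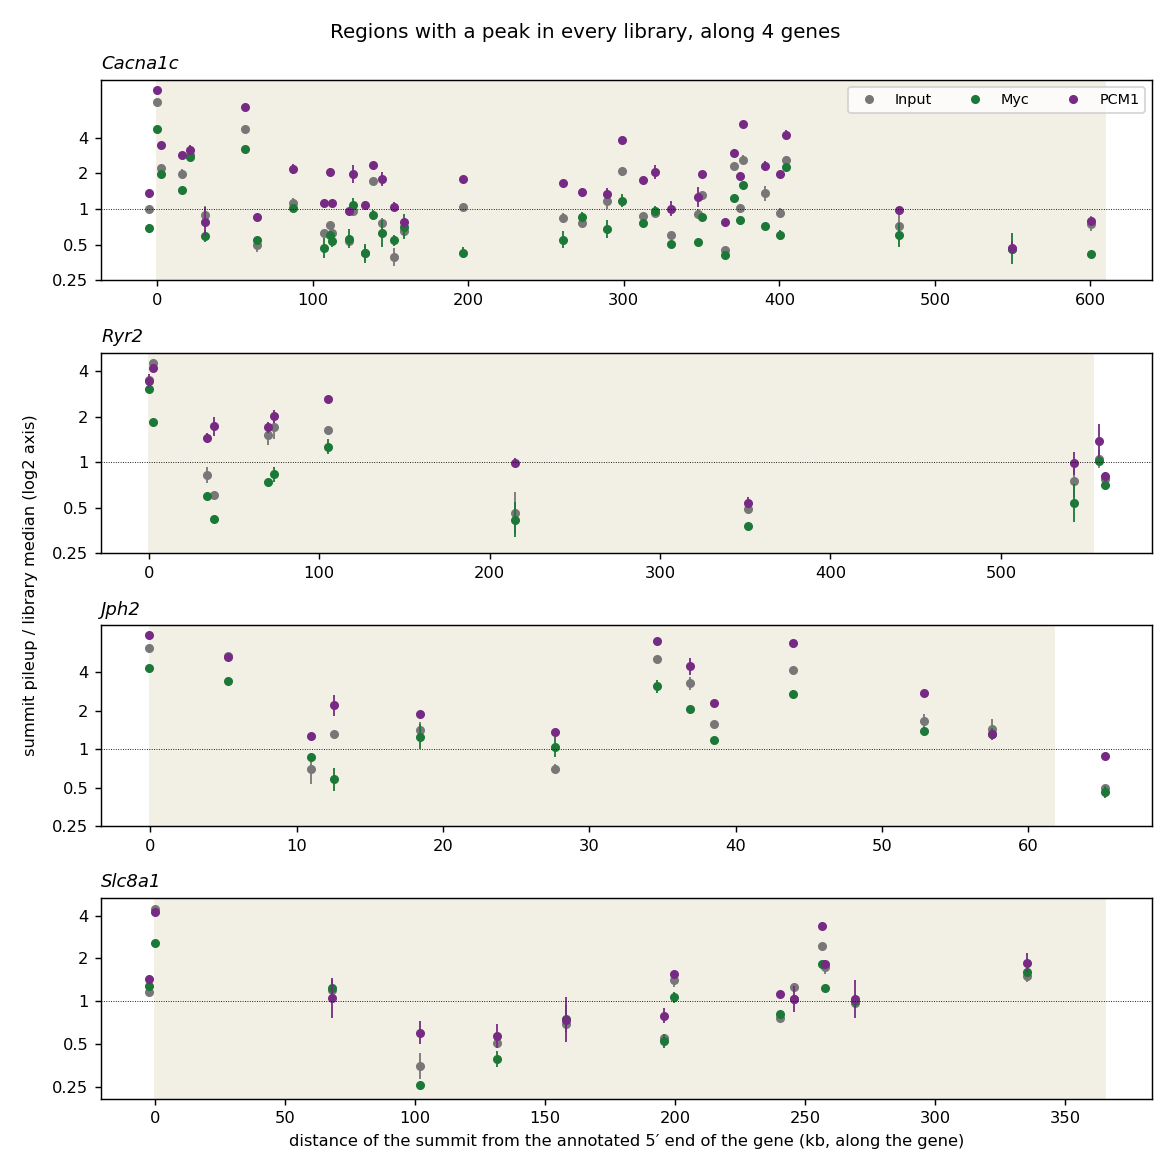
Relative summit pileup (log2 axis) of each shared region against its distance from the annotated 5′ end (kb) in Cacna1c, Ryr2, Jph2 and Slc8a1, with points at the geometric mean of a group and lines joining its 2 replicates (shading marks the gene). PCM1 lies above Myc at all 39 regions of Cacna1c, whereas in Slc8a1 the groups overlap over much of the gene.

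Cacnb2, the auxiliary subunit of the same channel, differed at few regions. Of its 12 shared regions 3 were lower in Myc than in PCM1, 2 were lower in Myc than in Input, and 0 differed between PCM1 and Input (2 higher at an unadjusted p under 0.05). The 3 became 1 without Myc replicate 1 and 5 without PCM1 replicate 1, the 2 became 0 without Input replicate 1 or Myc replicate 1 and 1 without Input replicate 2 or Myc replicate 2, and the 0 became 1 without either PCM1 library. The strongest promoter was not at the annotated 5′ end but 220 kb inside the gene, 807 bases upstream of transcript Cacnb2-214 (chr2:14823003-14823604). There the relative pileups were 4.6 and 3.70 (Input), 3.24 and 3.53 (Myc) and 6.27 and 4.69 (PCM1). Both PCM1 libraries were above the other 4, and the log2 difference of Myc from PCM1 was -0.68 ± 0.14 (SE, limma adjusted p = 0.000433). Away from the starts, the strongest region was the intron at 327 kb (chr2:14929756-14930351), at 2.65 and 2.67 (Input), 1.67 and 1.91 (Myc) and 2.63 and 3.03 (PCM1). Both Myc libraries were below the other 4, and the log2 difference from PCM1 was -0.66 ± 0.17 (adjusted p = 0.00371, or 0.0615 without Myc replicate 1). The region at the first annotated start (chr2:14603874-14605138) lay at 2.20 to 2.7 in all 6 libraries and was not called.

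Ryr2, the release channel, had a promoter with no called difference beside an intron that was low in Myc. Its promoter (chr13:12106147-12107151) had relative pileups of 3.37 and 3.60 (Input), 3 and 3.15 (Myc) and 3.87 and 3.1 (PCM1), with no comparison called (adjusted p = 0.415 to 0.981). The intron region 2.42 kb into the gene (chr13:12104246-12104979) stood at 4.66 and 4.50 (Input), 1.87 and 1.83 (Myc) and 4.40 and 4.03 (PCM1). Myc lay far below both other groups here, with log2 differences of -1.31 ± 0.15 from Input (SE, limma adjusted p = 3.74e-08) and -1.19 ± 0.15 from PCM1 (adjusted p = 1.56e-07). The difference of PCM1 from Input was -0.12 ± 0.15 (adjusted p = 0.662).

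Deeper in Ryr2 a different order was seen. The intron at 38.4 kb (chr13:12068421-12068760) had relative pileups of 0.575 and 0.633 (Input), 0.435 and 0.404 (Myc) and 1.5 and 2 (PCM1), so PCM1 stood apart, with a log2 difference of 1.52 ± 0.30 from Input (SE, limma adjusted p = 0.000723) and of -2.05 between Myc and PCM1 (adjusted p = 2.69e-06). In all, 8 of the 12 shared regions of Ryr2 were lower in Myc than in PCM1, 3 were lower in Myc than in Input and 3 were higher in PCM1 than in Input. Both counts of 3 fell to 1 without Input replicate 2, and the latter also without PCM1 replicate 1, and by fold enrichment the counts were 1, 0 and 0.

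Jph2, which holds the channel and the receptor together, differed at most of its regions. Of its 13 shared regions 10 were lower in Myc than in PCM1, 6 were lower in Myc than in Input and 6 were higher in PCM1 than in Input. The last count fell to 3 without Input replicate 1 and to 1 without Input replicate 2, and by fold enrichment the counts were 1, 0 and 0. The promoter (chr2:163397725-163398586) had relative pileups of 6.35 and 6.07 (Input), 4.26 and 4.43 (Myc) and 7.70 and 8.07 (PCM1). All 3 groups were apart, with log2 differences of -0.86 ± 0.11 between Myc and PCM1 (SE, limma adjusted p = 3.49e-07) and -0.51 between Myc and Input (adjusted p = 0.00122). The rise of 0.35 from Input to PCM1 (adjusted p = 0.0376) was lost without either Input library or either PCM1 library (adjusted p = 0.0656 to 0.232).

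Along Jph2 the intron at 5.33 kb (chr2:163392382-163392916), which holds a MEF2 match in the stretch above, stood at 5.05 and 5.73 (Input), 3.37 and 3.47 (Myc) and 5.00 and 5.55 (PCM1). Myc alone was low, with log2 differences of -0.65 ± 0.13 from Input (SE, limma adjusted p = 0.000373) and -0.62 from PCM1 (adjusted p = 0.000289). At the intron 44.0 kb in (chr2:163353613-163354503), with 2 E-box and 2 TEAD matches, the values were 4.39 and 3.97 (Input), 2.50 and 2.89 (Myc) and 6.57 and 6.97 (PCM1). There the 3 groups were all apart, and the log2 difference of Myc from PCM1 was -1.33 ± 0.13 (adjusted p = 2.91e-09). The nearest protein-coding TSS to this intron region is that of Tox2, 33657 bases away.

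Atp2a2, the calcium pump, was the gene whose promoter went the other way. Its promoter (chr5:122501400-122502884) had relative pileups of 6.73 and 4.77 (Input), 5.85 and 5.49 (Myc) and 4.07 and 4.45 (PCM1). Both PCM1 libraries were below the other 4, with a log2 difference of -0.41 ± 0.13 between PCM1 and Input (SE, limma adjusted p = 0.038) and of 0.41 between Myc and PCM1 (adjusted p = 0.017). Neither call was made without the intensity trend or by fold enrichment. The first was also not made with scaling by the genome-wide background, quantile normalisation or cyclic loess, where the second was kept. The first call was lost without Input replicate 1 (0.598), either Myc replicate (0.0567 and 0.0555) or PCM1 replicate 1 (0.127), and the second without either Myc replicate (0.14 and 0.0547) or PCM1 replicate 1 (0.0733), all adjusted p.

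Around the pump gene, the other 3 shared regions were all lower in Myc than in PCM1 and than in Input. The upstream region at 8.71 kb (chr5:122510578-122511231) stood at 4.39 and 4.07 (Input), 1.72 and 1.34 (Myc) and 3.53 and 2.59 (PCM1), with a log2 difference of -1.48 ± 0.17 between Myc and Input (SE, limma adjusted p = 1.13e-07). At the neighbouring upstream region at 7.59 kb (chr5:122509609-122510209) the log2 difference of Myc from Input was -0.78 (adjusted p = 0.00149), and was not called without Input replicate 1 (0.0614) or Myc replicate 1 (0.088). The region downstream of the gene, 51.2 kb from its 5′ end (chr5:122450606-122452598), had 3.16 and 3.33 (Input), 1.70 and 1.47 (Myc) and 5.10 and 4.41 (PCM1), and the log2 difference of Myc from PCM1 was -1.59 ± 0.16 there (adjusted p = 2.83e-09). The nearest protein-coding TSS to this region is that of Anapc7, 9660 bases away.

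Pln and Sln, the inhibitors of the pump, had no called difference at a promoter, but 3 of their 6 shared regions were called in some comparison. The Pln promoter (chr10:53337230-53337873) had relative pileups of 3.17 and 3.67 (Input), 3 and 3.04 (Myc) and 3.30 and 3.45 (PCM1), with no comparison called (adjusted p = 0.452 to 0.965). The region 2.16 kb upstream (chr10:53335238-53335773) lay at 2.03 to 2.96 in the 6 libraries and was not called either. The 1 called difference between Myc and PCM1 at Pln was downstream of the gene (9.06 kb from its 5′ end), at 2.58 and 2.17 (Input), 2.28 and 2.06 (Myc) and 3.90 and 4.28 (PCM1) (log2 difference -0.91, adjusted p = 5.1e-05), in a region named after its values were seen whose nearest protein-coding TSS is that of Cep85l. PCM1 was above Input there by 0.79 (adjusted p = 0.00119), a call lost without Input replicate 2 (0.0554). The region 4.74 kb upstream of Pln, also named after its values were seen, was lower in Myc than in Input (log2 difference -0.65, adjusted p = 0.0289), a call lost without any 1 of the Input or Myc libraries. Sln had no promoter peak in any library, and its 2 regions were weak. The one in its intron (chr9:53852136-53852574) lay at 0.586 to 0.933 in the 6 libraries, with no comparison called (adjusted p = 0.485 to 0.804). The other, downstream of the gene (chr9:53857779-53858402), stood at 0.796 and 1.17 (Input), 0.391 and 0.681 (Myc) and 1 and 0.931 (PCM1). Both Myc libraries were the lowest there, with log2 differences of -0.90 ± 0.31 from Input (SE, limma adjusted p = 0.0487) and -0.90 from PCM1 (adjusted p = 0.0267). The first call was lost without Input replicate 1 (0.0544), Input replicate 2 (0.448) or Myc replicate 1 (0.478), and the second without Myc replicate 1 (0.359) or PCM1 replicate 1 (0.0763).

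Casq2, which stores calcium in the reticulum, was lower in Myc than in PCM1 at all 4 of its shared regions, or at 2 without Myc replicate 1. Its promoter (chr3:102085799-102086639) had relative pileups of 2.12 and 2.43 (Input), 1.52 and 1.77 (Myc) and 2.47 and 3.48 (PCM1), and the log2 difference of Myc from PCM1 was -0.84 ± 0.19 (SE, limma adjusted p = 0.000839). The intron 13.05 kb from the 5′ end (chr3:102099050-102100303), shown above with an E-box and a GATA match, was higher than the promoter in every library, at 4.03 and 4.07 (Input), 2.13 and 2.72 (Myc) and 4.13 and 4.93 (PCM1). Both Myc libraries were below the other 4, with log2 differences of -0.75 ± 0.15 from Input (adjusted p = 0.000523) and -0.91 from PCM1 (adjusted p = 1.74e-05).

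Trdn, which anchors Casq2 to the receptor, did not follow the others. Its promoter region (chr10:33082961-33084195) lay at 0.936 to 1.28 in the 6 libraries and its strongest region, the intron at 176 kb (chr10:33256145-33256683) with a GATA and a TEAD match, at 2.65 and 2.13 (Input), 2.37 and 2.3 (Myc) and 2.7 and 2.41 (PCM1). The groups overlapped at both, and 0 of 5 regions were lower in Myc than in PCM1 (0 also at an unadjusted p under 0.05). At the intron at 12.1 kb (chr10:33092426-33092827), named after its values were seen, the order was reversed, with 1.21 and 1.17 (Input), 1.5 and 1.51 (Myc) and 0.600 and 0.655 (PCM1). The log2 difference of Myc from PCM1 was 1.26 ± 0.26 there (SE, limma adjusted p = 0.000273).

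Slc8a1, the exchanger, was lower in Myc than in PCM1 at its promoter and at 3 introns, and lower in Myc than in Input at its promoter alone among its 14 shared regions. The promoter (chr17:81737875-81738821) had relative pileups of 4.27 and 4.57 (Input), 2.43 and 2.68 (Myc) and 4.30 and 4.21 (PCM1). The log2 difference of Myc was -0.79 ± 0.14 from Input (SE, limma adjusted p = 0.000107) and -0.74 from PCM1 (adjusted p = 0.000122), while that of PCM1 from Input was -0.05 ± 0.14 (adjusted p = 0.855). The count of 4 regions lower in Myc than in PCM1 fell to 2 without Myc replicate 1 or PCM1 replicate 2. The strongest intron, at 256 kb (chr17:81481751-81482458), stood at 2.52 and 2.40 (Input), 1.78 and 1.85 (Myc) and 3.20 and 3.59 (PCM1), and the log2 difference of Myc from PCM1 was -0.90 ± 0.17 (adjusted p = 9.52e-05). The nearest protein-coding TSS to it is that of Gm11096, 40240 bases away.

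The promoters were also compared by their rank within each library, which moves with the length of the lists (75336 to 131500 peaks), so each count is read against the share of all genes. Both Input libraries ranked above both Myc libraries at 4 of the 9 genes with a promoter peak (Casq2, Cacna1c, Slc8a1 and Jph2), where 8.73% of 15498 genes did, and the reverse held at 0 of the 9 (29.4% of genes). PCM1 ranked above Myc at 5 (Casq2, Cacna1c, Cacnb2, Slc8a1 and Jph2, against 7.72%) and Myc above PCM1 at 3 (Ryr2, Atp2a2 and Pln, against 63.5%). PCM1 ranked above Input at Cacna1c and Jph2 (3.59% of genes), and Input above PCM1 at Atp2a2, Pln and Slc8a1 (35.6%). With the lists cut to an equal number of peaks, Myc ranked above PCM1 at 1 gene and Input above PCM1 at 1. For these cut lists the share of all genes was not computed. With 2 libraries a group, no permutation test of a single gene can pass 0.05.

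The paralogs of these genes, most of them known from skeletal muscle or nerve cells, had weaker promoters. In 13 of 15 pairs the promoter peak of the member ranked above that of its paralog in 6 of 6 libraries. No promoter peak was listed in any library for Atp2a1, the pump of skeletal muscle, for Cacna1s, its channel pore, or for Jph3, a junctophilin of the brain. Ryr1, the skeletal muscle release channel, had a median rank percentile of 43.7 over the 6 libraries where Ryr2 had 91.4, and Ryr3 had 69.8. Cacna1d had 59.9 where Cacna1c had 98.7, and Slc8a3 had 47.7 where Slc8a1 had 94.8. The exceptions were Casq1, the skeletal muscle calsequestrin, which ranked at 89.1 beside 85.0 for Casq2 and below Casq2 in 2 of 6 libraries, and Jph1, at 96.3 beside 97.4 for Jph2 and below it in 3 of 6. The lead was less complete by the strongest peak of the gene and its 10 kb flanks. Cacna1c was then above Cacna1d in 4 of 6 libraries. Ryr2 was above Ryr3, Cacnb2 above Cacnb4 and Slc8a1 above Slc8a2 in 5 of 6. In the other direction, Casq2 was then above Casq1 in 5 of 6 and Jph2 above Jph1 in 4 of 6.

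**Figure D5:**
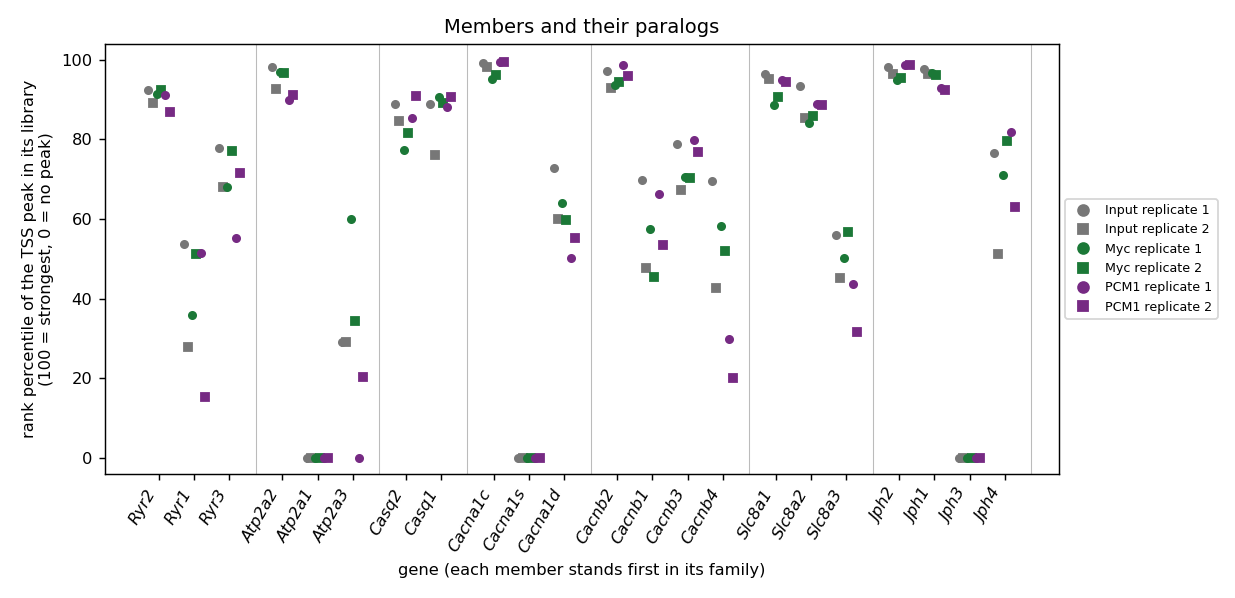
Rank percentile of the strongest peak within 1 kb of a TSS (100 is the strongest peak of the library, 0 means no peak) for the members and their paralogs in each of the 6 libraries. Atp2a1, Cacna1s and Jph3 lie at 0 throughout, and of the paralogs only Casq1 and Jph1 rank above their member in any library.

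Other genes of calcium handling went both ways. Of 53 further genes listed by role, 52 were found in the annotation, with 263 shared regions. Of these 263 regions 52 were lower and 35 higher in Myc than in PCM1 (13.7% and 15.1% of all regions were). Against Input, 36 were lower and 19 higher in Myc (9.11% and 4.16% of all). In PCM1, 10 were higher and 19 lower than in Input (2.87% and 7.9% of all). The median difference of Myc from PCM1 was -0.07, beside 0.00 over all regions. Srl, a calcium-binding protein of the reticulum, was lower in Myc than in PCM1 at 6 of 10 regions, and Speg, a muscle kinase of the junction, at 8 of 13 (with 3 of the 13 higher in PCM1 than in Input). Calr, a calcium-binding protein of the endoplasmic reticulum in most cells, went the other way and was higher in Myc than in PCM1 at 3 of 4 regions. By role, the release list had 5 of 52 regions lower and 9 higher in Myc than in PCM1, storage 9 and 5 of 37, entry 10 and 9 of 68, efflux 2 and 3 of 17, junction 11 and 4 of 30, regulation 12 and 5 of 53, and uptake 3 and 0 of 6.

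Regions of cardiomyocyte markers moved in the same direction as those of the calcium handling genes. Among 12 cardiomyocyte markers, 49 of 73 shared regions were lower and 3 higher in Myc than in PCM1. Over all regions 13.7% were lower and 15.1% higher, shares against which the other lists below are also read. Of the 73, 35 were lower in Myc than in Input (9.11% of all regions) and 21 were higher in PCM1 than in Input (2.87%). The median promoter rank of these markers was 97.5 and 95.3 (Input), 90.0 and 92.5 (Myc) and 93.5 and 95.1 (PCM1). Of 12 fibroblast markers 2 of 29 regions were lower and 3 higher in Myc than in PCM1, and the median rank was 74.6 and 50.2 (Input), 66.4 and 73.7 (Myc) and 48.0 and 41.4 (PCM1). Endothelial markers had 8 of 64 regions lower and 5 higher, at median ranks of 54.3 to 80.2, and markers of smooth muscle and pericytes 3 of 35 lower and 3 higher, at 41.3 to 79.8. The part of these cell types in the differences was not tested. Epicardial markers had a median rank of 28.5 to 73.0, and immune and erythroid markers had a median of 0 in every library, with no promoter peak listed anywhere for Ptprc, Cd68, Csf1r, Adgre1 or Cd3e. Skeletal muscle markers had a median of 0 to 22.3. Of these 8 markers, Myog, Myf5 and Myf6 had no promoter peak, Pax7 and Myod1 had one in 2 and 4 libraries, and Mylpf (99.6 to 99.9), Actn3 (92.7 to 97.2) and Tnnt3 (42.8 to 62.4) had one in all 6.

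Motifs of cardiac factors were counted in the shared regions of the 10 genes and in all shared regions. In 300 bases around the summit, a MEF2 match was found in 14 of 109 regions (12.8%, 95% Wilson interval 7.81 to 20.4%), against 6.06% of all 48861, and a GATA match in 25 (22.9%, 16.1 to 31.7%), against 14.2%. TEAD matches were in 32 (29.4%, 21.6 to 38.5%), against 19.4%, NKX2-5 matches in 22 (20.2%, 13.7 to 28.7%), against 13.7%, and CArG boxes in 5 (4.59%, 1.98 to 10.3%), against 1.70%. E-box matches were as common as elsewhere (26.6% in both), TBX matches were in 6 regions (5.505%, against 4.325%), and AP-1 matches in 7 (6.42%, against 10.04%). Intervals cover counting error only, and regions of 1 gene are not independent, so no test was made. Limited to regions over 1 kb from a TSS, the shares were 13.7% against 7.73% for MEF2, 25.3% against 17.7% for GATA, 31.6% against 22.6% for TEAD and 20% against 16.3% for NKX2-5. In 200 bases the TEAD share of the 109 regions was 17.4%, against 14.3% of all.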

How the data were processed

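Omni-ATAC-Seq peak lists of 6 libraries (Input, Myc and PCM1, 2 biological replicates each) were used. Per the study's methods the authors trimmed reads with fastq-mcf, aligned them to mm10 with Bowtie2 2.3.3.1, marked duplicates with Picard 2.2.1, removed blacklisted regions with bedtools, shifted reads for the transposase and called peaks per library with MACS2 2.1.0.20160309 at a q-value of 0.05. The deposited lists give, for each peak, a score from MACS2, a fold enrichment at the summit over the local background, and −log10 p and −log10 q values as the authors' caller wrote them. The lists hold no read counts. The summit pileup and the local background were solved from fold and p-value under the Poisson model of MACS2, and 99.8 to 100% of the pileups came out whole.

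Peaks were merged across libraries with bedtools 2.31.1. Pileups were divided by the library median over regions with a peak in all 6 libraries, and log2 values were fitted with limma 3.58.1 in R 4.3.3 (empirical Bayes with an intensity trend, Benjamini-Hochberg adjustment over 48861 regions, called at 0.05). The fitting script was tested on simulated data. Ranks within a library were taken by q-value. Motifs were searched in GRCm38 with RefSeq's sequence (samtools 1.23.1, pysam 0.24.0, Python 3.11.15). Named were the members, their paralogs, other calcium handling genes with a called region, and, of each member, the promoter region, the strongest other region and called regions, at most 20 by smallest p. The members, lists and tests were chosen with earlier results of these data known. The alternatives were other scalings, fold in place of pileup, no trend, a pseudocount, a minimum pileup of 10, other ranks and windows, a replicate block, and leaving out each library. Cyclic loess and leaving out peaks at other genes' start sites were added after the data were seen.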

Additional observations from a re-analysis of the deposited data

How the results depend on the processing

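Pileups rest on solved values, and weak regions rest on few fragments in the shallow libraries, which limits their precision. With fold enrichment in place of pileup, 0 member regions were lower in Myc than in Input, 0 were higher and 0 lower in PCM1 than in Input, 1 was higher in Myc than in PCM1 and 4 were lower. Under fold the difference of PCM1 from Input turned negative at the Cacna1c promoter (-0.0576 on the log2 scale), the Cacna1c introns at 299 kb (-0.23) and 391 kb (-0.28), the region downstream of Atp2a2 (-0.0643) and the Jph2 intron at 34.6 kb (-0.0579), and the cause was not tested. Without the intensity trend the counts were 0 lower in Myc than in Input, 0 higher and 0 lower in PCM1 than in Input, and 1 higher in Myc than in PCM1. The 2 regions lower in PCM1 than in Input became 1 with background scaling, quantile normalisation or cyclic loess. Over all regions, fold called 1991 higher and 2081 lower in Myc than in PCM1, and 40 and 154 against Input. Background scaling called 4230 regions higher and 2350 lower in Myc than in Input, where the median scaling called 2032 and 4453.

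By fold ranks, 4 members had another peak above the promoter peak, Myc ranked above Input at 1 member, PCM1 above Input at 0 and Input above PCM1 at 5. With an equal number of peaks, Input ranked above PCM1 at 1 and Myc above PCM1 at 1. With the strongest peak of the gene and 10 kb, Myc ranked above PCM1 at 1. No share of all genes was computed for these other rankings, so the counts describe the members alone. By fold ranks the marker medians were 61.3 for cardiomyocyte, 58.4 for fibroblast, 54.8 for endothelial and 51.8 for smooth muscle and pericyte lists. The fibroblast list then stood above the cardiomyocyte list in the Myc libraries (64.4 and 70.4, against 58.9 and 63.8). It stood below in Input (71.7 and 51.2, against 75.6 and 70.5) and in PCM1 (52.5 and 46.2, against 53.6 and 57.3). The TEAD share in 200 bases was 17.4%.

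Leaving out each library in turn gave 18 to 30 regions lower in Myc than in Input, 8 to 31 higher and 0 to 3 lower in PCM1 than in Input, 1 to 2 higher in Myc than in PCM1 and 49 to 64 lower. The lone sample of a group was then assumed to vary like the other groups. Of the comparisons at named regions with a library left out, 564 kept their side of the threshold, 41 lost and 7 gained a call. No difference called there in the main fit changed direction, and direction was not checked where neither fit made a call.

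Samples with the same replicate number did not deviate together (r = 0.00717, -0.00391 and 0.00631), so no shared effect of the number was seen. Such correlations cannot tell whether libraries came from the same hearts. The paper describes the input as an aliquot of the cushion nuclei, with the rest going on to MAN-IP. Whether Input and PCM1 libraries share preparations is therefore not known. With the replicate number as a block the counts were 26 lower in Myc than in Input, 31 higher and 3 lower in PCM1 than in Input, and 66 lower in Myc than in PCM1.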
